A study of Mus musculus with 31 samples.

Results

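Translation initiation factors are the proteins that bring the initiator tRNA, the messenger RNA and the ribosomal subunits together before protein synthesis starts. Their genes were taken as every gene whose symbol begins with Eif and a digit from 1 to 6 and that a probe set of a single gene symbol reported, pseudogenes left out, with the brightest probe set standing for the gene. This gave 49 genes of 18820 on the array, and 47 of them were bright enough to be tested among 12795 genes. Eif4a3l1 and Eif5a2 were too dim. Eif1, Eif2s1, Eif3g, Eif4g1, Eif3j and Eif4ebp3 were not analysed here.

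The RNA came from the scraped colon epithelium of C57Bl/6J males aged 13 weeks. They ate semi-synthetic diets that drew 10% (LFD) or 45% (HFD) of energy from fat, with palm oil replacing lard. Under light sedation they were given 80 µL of saline into the rectum on 6 days, alone or with 100 mM of sodium acetate, sodium propionate or sodium butyrate, and the tissue was taken 4 h after the last infusion. All solutions had the same pH and tonicity, and the acids differ in chain length, acetate being the shortest and butyrate the longest. Every diet and infusion pair had 4 arrays except acetate on LFD, which had 3, so 31 arrays in 8 groups were compared. The labels name 6 mice per group without saying which of them the arrays hold, so p-values measure the spread between these samples. The arrays had log2 medians of 5.14 to 5.19, and within a group they correlated at 0.987 to 0.994. All 6 colonocyte markers and the 4 goblet cell markers on the array were bright enough to be tested. In scrapings of mixed cells, fewer cells of a type and less RNA per cell cannot be told apart. Transcripts of small-intestinal absorption were high on 4 arrays, saline HFD 2, propionate LFD 2 and arrays 2 and 3 of saline on LFD. Smooth muscle transcripts were high on saline HFD 1 and 2.

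Initiation proceeds in steps that the gene names follow. The eIF2 complex carries the initiator tRNA to the small ribosomal subunit, eIF2B recharges eIF2 with GTP, and kinases that phosphorylate the alpha subunit of eIF2 turn this exchange down under stress. The large eIF3 complex holds the small subunit ready, eIF4E binds the cap of the messenger RNA, eIF4G bridges it to eIF3, and the helicase eIF4A with its cofactors unwinds the leader. The factors of the eIF1 and eIF5 families then select the start codon and join the large subunit. The colonic epithelium renews itself within days and its mucus and transporter output needs steady protein synthesis, and these factors serve in every cell of it.

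The initiation factor genes varied little between the groups. Over the 47 tested genes, the span between the lowest and the highest group mean had a median of 0.21 on the log2 scale, with 0.24 over all genes tested. The narrowest span was 0.052 for Eif4g2, a scaffold related to eIF4G that works without the cap-binding protein, and the widest was 0.49 for Eif5a, whose protein helps ribosomes through difficult peptide bonds and in termination. The spread between arrays of a group had a median SD of 0.13, with 0.15 over all genes. Mean levels of the probe sets ran from 4.48 for Eif4e1b to 11.6 for Eif4a1, and probe sets differ in affinity, so these levels do not rank the genes. In the mean over the 47 genes, the lowest group was propionate on HFD at 8.59 ± 0.059 (SD, n = 4) and the other 7 groups lay between 8.62 and 8.67. The 4 propionate HFD arrays were at 8.67, 8.55, 8.56 and 8.56, so array 1 of that group lay with the other groups and arrays 2 to 4 below them.

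**Figure D1:**
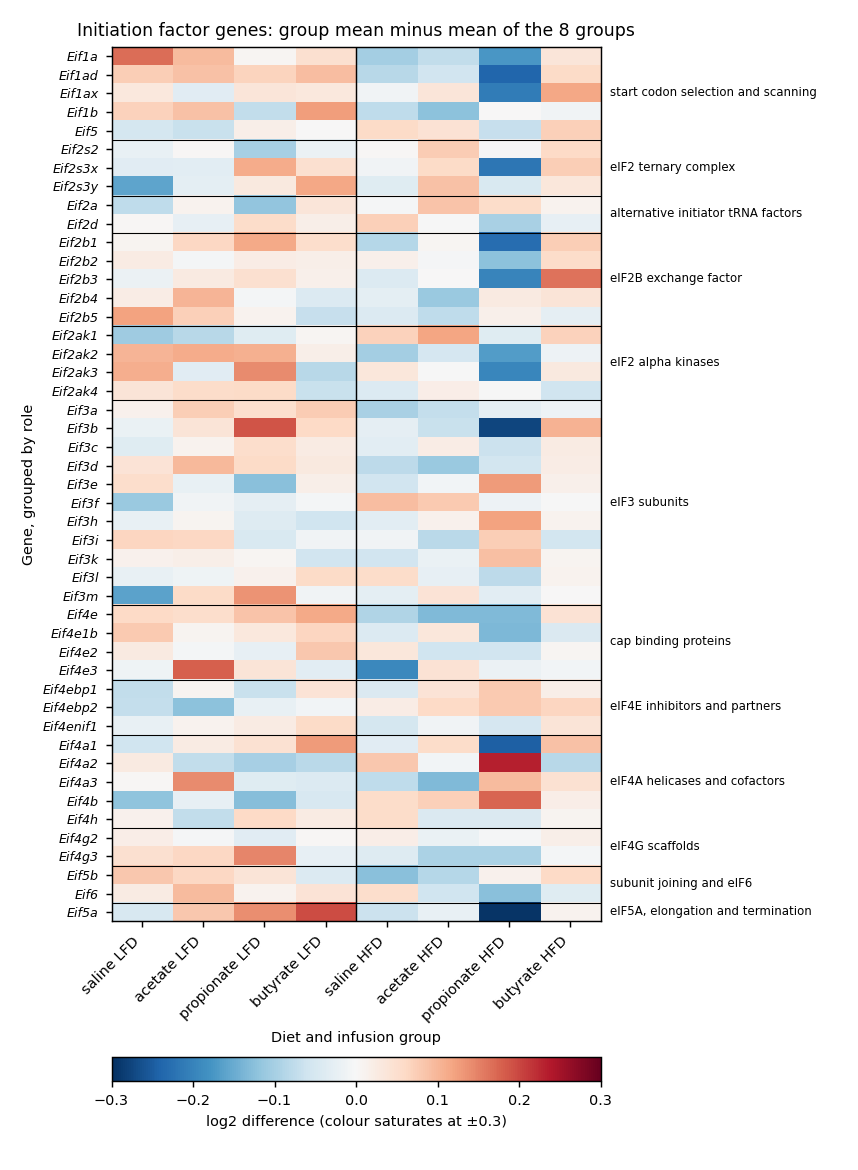
Group means of the 47 tested initiation factor genes (rows, grouped by role) in the 8 diet and infusion groups (columns), each as the log2 difference from the gene's mean over the groups, with colour saturating at ±0.3. The deepest blue cells, for Eif5a, Eif3b, Eif4a1 and Eif1ad, and the deepest red cell, for Eif4a2, lie in the propionate HFD column.

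Of the 17 comparisons made, 1 held calls among these genes, the comparison of the diets in mice given propionate. There, 4 genes were lower on HFD than on LFD, namely Eif3b by 0.46, Eif5a by 0.43, Eif2b1 by 0.34 and Eif2s3x by 0.33 on the log2 scale, and Eif4b was higher by 0.30. They belong to different steps: the core of eIF3, eIF5A, the exchange factor eIF2B, the tRNA carrier eIF2 and a cofactor of the helicase. The 5 genes are 10.6% of the 47, where limma called 879 of all genes tested, or 6.87%. Higher calls made up 2.05% of all genes and lower calls 4.82%. At an unadjusted p under 0.05 stood 17 of the 47, or 36.2%, against 24.4% of all genes. Of the 47, 16 were higher and 31 lower on HFD, with a median difference of -0.08, while the median over all genes was -0.02. The arrays of the diets did not overlap for 7 of the 47 (5 lower, 2 higher), against 14% of all genes.

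The number of calls changed with single arrays. Without propionate HFD array 2, propionate HFD array 3 or propionate LFD array 3 no member passed, without propionate LFD array 4 there was 1, without propionate LFD array 1 there were 2 and without propionate HFD array 4 there were 3. Without propionate HFD array 1 there were 10, and without propionate LFD array 2 the count stayed at 5. Over these 8 fits, all genes called ran from 0 to 1731, against 879 in the full set.

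**Figure D2:**
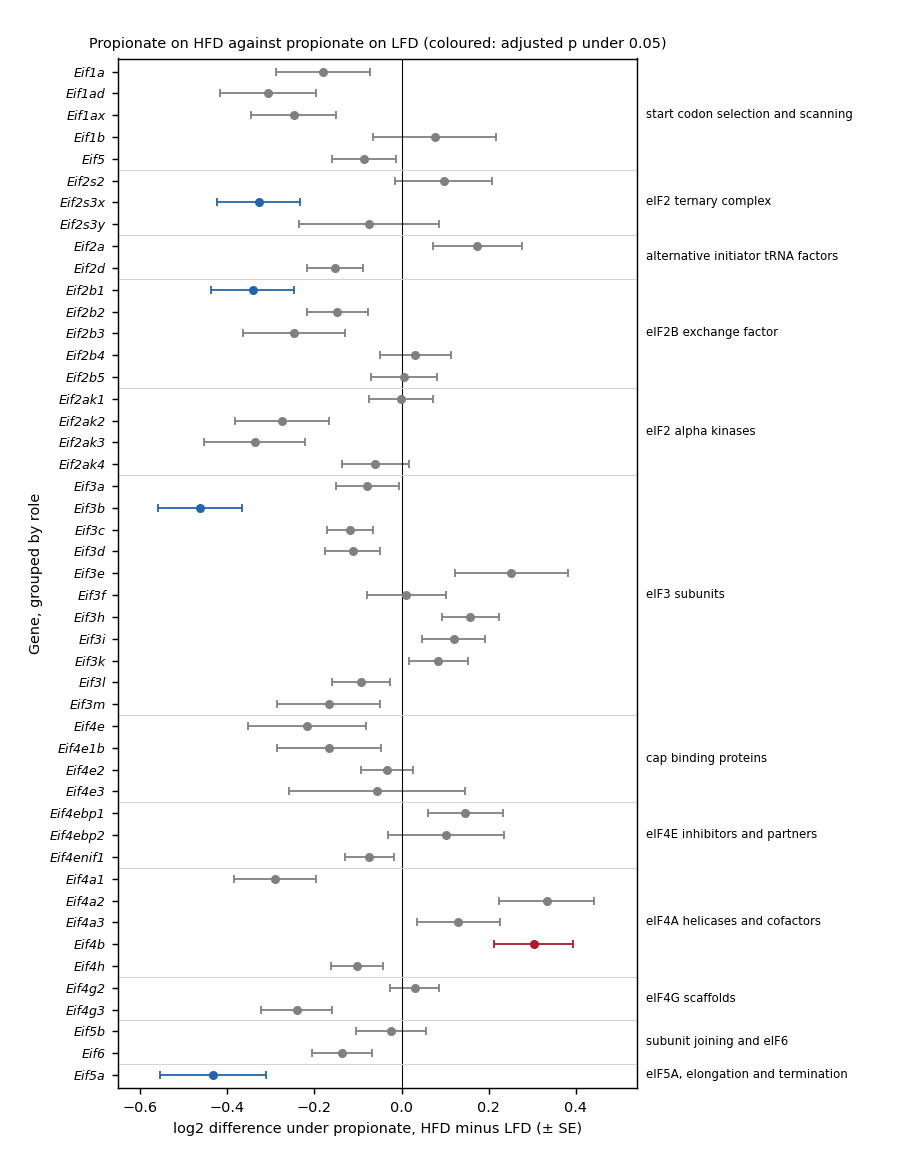
Diet difference under propionate for the 47 tested genes, grouped by role: log2 level on HFD minus log2 level on LFD, with bars of ± 1 standard error of the fit. Blue and red points mark the 5 genes with an adjusted p under 0.05, of which Eif3b lay farthest from 0 at -0.46 and Eif4b was the only one above 0.

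Among the subunits of eIF3, Eif3b was the one that passed. It encodes a core subunit that holds the complex to the small ribosomal subunit. The propionate LFD arrays read 10.22, 10.13, 10.32 and 10.27, and the propionate HFD arrays 9.82, 9.70, 9.83 and 9.74. Every HFD array was below every LFD array. The difference of -0.46 ± 0.096, or -27.4% on the linear scale, had an adjusted p of 0.0133 (limma). It stayed past the threshold in 5 of the 8 fits that left out an array of these groups, with adjusted p from 0.00701 to 0.0566. The other 10 tested eIF3 genes did not pass: 5 of the 11 were higher on HFD and 6 lower, with a median of -0.08. Their differences ran from -0.17 for Eif3m to 0.25 for Eif3e, so the subunits of this complex did not share a direction.

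Eif2s3x, an X-linked gene for the gamma subunit of eIF2 that binds GTP and the initiator tRNA, was lower on HFD with propionate. Its LFD arrays were at 9.65, 9.44, 9.78 and 9.66 and its HFD arrays at 9.47, 9.12, 9.12 and 9.49. All 4 HFD arrays lay under the LFD mean, but HFD arrays 1 and 4 were above LFD array 2. The difference was -0.33 ± 0.095 (adjusted p = 0.0371, limma), and 3 of 8 fits without an array kept it past the threshold. The Y-linked copy Eif2s3y differed by -0.07 and the beta subunit gene Eif2s2 by 0.10, neither past the threshold. Of the factors that deliver initiator tRNA without eIF2, Eif2a differed by 0.17 and Eif2d by -0.15. The arrays of the diets did not overlap for Eif2d.

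In the exchange factor eIF2B, the alpha subunit gene Eif2b1, which senses phosphorylated eIF2, was the member that passed. The LFD arrays read 8.51, 8.48, 8.67 and 8.60 and the HFD arrays 8.59, 8.02, 8.12 and 8.18. HFD arrays 2 to 4 lay well below all LFD arrays and HFD array 1 lay among them. The difference was -0.34 ± 0.095 (adjusted p = 0.0332, limma), it grew to -0.46 without HFD array 1, and it passed in 2 of 8 fits without an array. Eif2b3, of the catalytic part, had HFD arrays at 7.10, 6.48, 6.48 and 6.51 against LFD arrays at 6.94, 6.73, 6.94 and 6.95, a difference of -0.25 that did not pass. HFD arrays 2 to 4 lay below all LFD arrays of this gene and HFD array 1 above them all. Eif2b2 differed by -0.15, Eif2b4 by 0.03 and Eif2b5 by 0.0046.

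The 4 kinases of eIF2 alpha were all at or below 0 in this comparison and none passed. Eif2ak3, the endoplasmic reticulum sensor PERK, had LFD arrays at 8.31, 8.21, 8.17 and 8.20 and HFD arrays at 7.95, 7.90, 7.84 and 7.84. The arrays did not overlap, and the difference of -0.34 ± 0.12 had an adjusted p of 0.0710 (limma). Eif2ak2, the double-stranded RNA sensor PKR, differed by -0.27, the amino acid sensor Eif2ak4 by -0.06 and the heme sensor Eif2ak1 by less than 0.01. Eif2ak3 was described in full after its values were seen, as were Eif2b3 above and Eif4a1, Eif4a2 and Eif1ad below.

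The helicase group held both directions. Eif4b, which stimulates eIF4A and the unwinding of structured leaders, read 10.25, 10.32, 10.18 and 10.18 on LFD and 10.44, 10.55, 10.62 and 10.54 on HFD. Every HFD array was above every LFD array, and the difference of 0.30 ± 0.091, or 23.4% on the linear scale, had an adjusted p of 0.0424 (limma). It passed in 2 of 8 fits without an array. Eif4a1, the main helicase gene, read 11.67, 11.62, 11.79 and 11.66 on LFD and 11.62, 11.29, 11.17 and 11.48 on HFD. Its difference of -0.29 ± 0.094 had an adjusted p of 0.0556. Its close paralog Eif4a2 read 10.31, 10.41, 10.43 and 10.25 on LFD and 10.82, 10.53, 10.83 and 10.55 on HFD, a difference of 0.33 ± 0.11 with an adjusted p of 0.0581 in the same fit. So the paralogs lay on opposite sides of 0, neither past the threshold, and the arrays of Eif4a2 did not overlap between the diets. Eif4a3, the helicase of the exon junction complex, differed by 0.13 and the cofactor gene Eif4h by -0.10.

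Of the eIF5A genes, Eif5a was tested. Its LFD arrays were at 10.28, 10.31, 10.62 and 10.53 and its HFD arrays at 10.13, 9.86, 9.85 and 10.18, without overlap. The difference was -0.43 ± 0.12 (adjusted p = 0.0343, limma), it passed in 4 of 8 fits without an array, and HFD arrays 2 and 3 were the lowest. A second, dimmer probe set for Eif5a gave -0.12 (adjusted p = 0.326 in the fit of all probe sets), so the call held for the brighter probe set. For Eif4a1 the other 2 probe sets gave -0.21 and -0.19. Which transcripts each probe set reads, processed gene copies included, was not settled for Eif5a, Eif4a1, Eif3m, Eif4e and Eif2s2.

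None of the remaining roles held a call. Among the start codon and scanning factors, Eif1ad, whose protein shares a domain with eIF1A, read 8.00, 7.93, 7.99 and 7.90 on LFD and 7.77, 7.64, 7.62 and 7.56 on HFD, without overlap, a difference of -0.31 with an adjusted p of 0.0818 (limma). In that group, 4 of 5 genes were lower on HFD. The 4 cap-binding genes, led by Eif4e at -0.22, were all lower without passing, and a second probe set for Eif4e gave -0.12. The differences of Eif4e2 at -0.03 ± 0.060 and Eif4e3 at -0.06 ± 0.20 were smaller than their standard errors. Eif4e1b averaged 4.35 with propionate on HFD, close to the filter level of 4.32. Of the proteins that hold eIF4E back, Eif4ebp1 differed by 0.15 and Eif4ebp2 by 0.10. The scaffold genes Eif4g3 and Eif4g2 stood at -0.24 and 0.03, and the subunit joining genes Eif5b and Eif6 at -0.02 and -0.14.

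**Figure D3:**
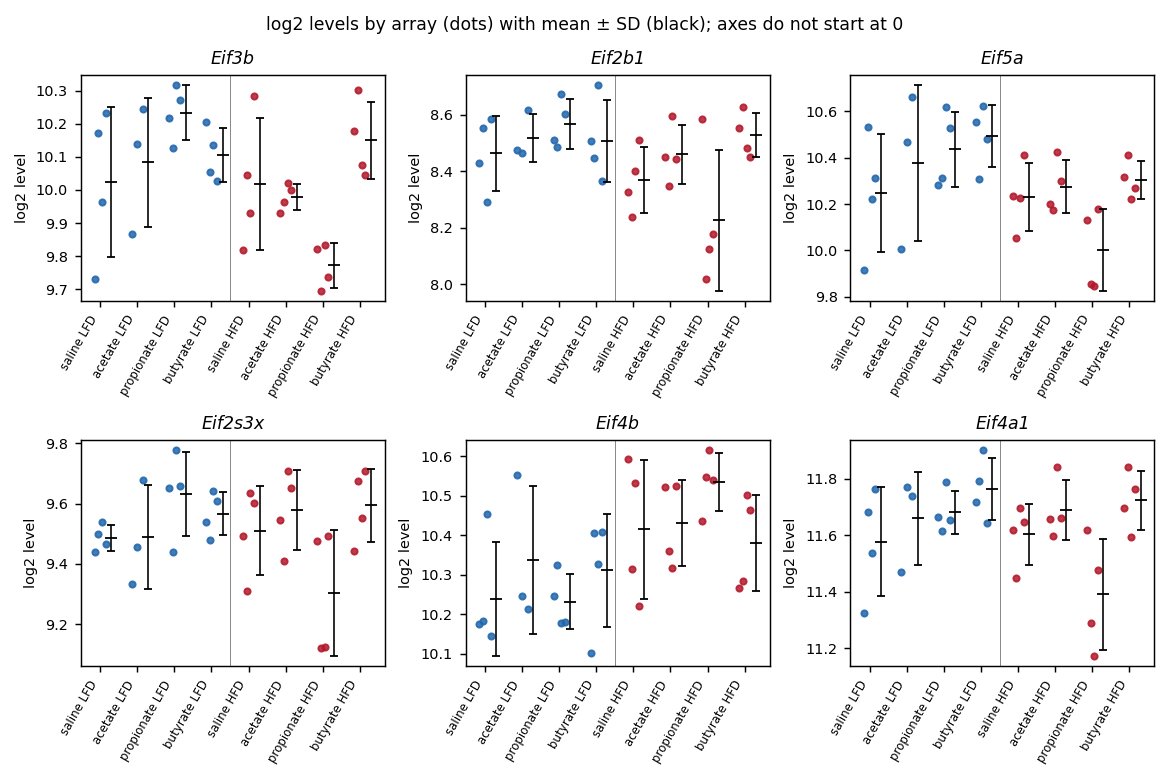
log2 levels of Eif3b, Eif2b1, Eif5a, Eif2s3x, Eif4b and Eif4a1 on each array, by diet and infusion group, with LFD in blue and HFD in red and the group mean ± SD in black. For Eif3b the propionate HFD arrays span 9.70 to 9.83, all below the propionate LFD arrays at 10.13 to 10.32, and for Eif2b1 propionate HFD array 1 at 8.59 sits apart from the other 3 arrays of its group.

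Start regions of 3 of the called genes are shown because Eif3b had the largest difference, Eif2s3x carries a stress-response motif and Eif4b differed in the other direction. Each is the 120 bases before the RefSeq start, 5′ to 3′ on the gene's strand, in the build GRCm38.p6. They lie at chr5:140419185-140419304 on the plus strand, chrX:94212652-94212771 on the minus strand and chr15:102073653-102073772 on the plus strand, all outside the transcript. Capitals mark the reverse complement of TGATGNAA, a form of the element bound by ATF4, the transcription factor that eIF2 alpha phosphorylation brings up.
Eif3b: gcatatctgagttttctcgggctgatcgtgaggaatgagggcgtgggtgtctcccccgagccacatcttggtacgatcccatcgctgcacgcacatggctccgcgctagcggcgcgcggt
Eif2s3x: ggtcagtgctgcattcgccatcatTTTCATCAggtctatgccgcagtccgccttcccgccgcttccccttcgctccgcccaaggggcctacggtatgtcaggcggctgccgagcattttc
Eif4b: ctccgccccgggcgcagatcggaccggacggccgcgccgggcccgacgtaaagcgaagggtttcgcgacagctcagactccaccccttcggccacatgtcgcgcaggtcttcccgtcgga

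RefSeq windows from 250 bases before to 50 after the start were matched by symbol for 39 of the 49 genes. Incomplete windows and those of 1 chromosome were left out first, and the most upstream start stood for each gene. Motifs were searched only in the 250 bases before the start. On either strand, TGATGNAA was in 1 of 39 member windows (2.56%), that of Eif2s3x, and in 3.26% of 17492 windows of protein-coding genes. The E-box CACGTG, the letters that MYC binds, was in 6 of 39 (15.4%), against 6.65% of all windows. The 6 were Eif1b, Eif3f, Eif3k, Eif4a1, Eif4h and Eif5a2, so none of the called genes had it. A match is a description of letters and not of a bound site.

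Ribosomal protein genes and small nucleolar RNAs were mostly higher on HFD with propionate. In this comparison, 65 of 72 cytosolic ribosomal protein genes were higher on HFD with a median difference of 0.12, and 15 passed as higher and 1 as lower, where 2.05% of all genes passed as higher and 4.82% as lower. Rps27 was higher by 0.50 (adjusted p = 0.0156) and Rps12 by 0.55 (adjusted p = 0.0162, both limma). Of 55 small nucleolar RNAs, which guide the modification of ribosomal RNA, 53 were higher with a median of 0.65, and 34 passed, all as higher (2.05% of all genes). Their mean was 7.74 ± 0.25 (SD, n = 4) with propionate on HFD and 6.99 ± 0.14 (SD, n = 4) with propionate on LFD. Eif4a1 and Eif4a2 both carry small nucleolar RNAs in their introns. The part of this shift in the results for the initiation factors was not tested.

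The genes that act beside the Eif genes were read against the 6.87% of all genes that passed, 4.82% as lower and 2.05% as higher. Among 20 partners of initiation, Abce1, which splits ribosomes for a new round, fell by 0.45 (adjusted p = 0.0300), and none rose. Among 13 elongation and termination genes, Gspt1, for the release factor eRF3a, fell by 0.57 (adjusted p = 0.0175) and its paralog Gspt2 rose by 0.47 (adjusted p = 0.0392). Of 20 genes of the integrated stress response, the programme that eIF2 alpha phosphorylation starts, 3 fell, where 4.82% of all genes did, and none rose. Aldh18a1, of proline synthesis, fell by 0.65 (adjusted p = 0.0133), Asns, of asparagine synthesis, by 0.61 (adjusted p = 0.0263), and the chaperone gene Hspa5 by 0.68 (adjusted p = 0.0462, all limma). Of 13 genes of the mTOR pathway, which controls eIF4E through its binding proteins, none passed. Of these 13, 2 had an unadjusted p under 0.05, against 24.4% of all genes.

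Cell type markers beside these values were as follows. Of 6 proliferation markers, Mcm5 fell by 0.76 (adjusted p = 0.0194) and Mcm4 by 0.68 (adjusted p = 0.0230, limma), where 4.82% of all genes passed as lower. In all, 5 of the 6 were lower, and their mean ran from 6.88 to 7.43 with propionate on HFD and from 7.37 to 7.76 with propionate on LFD. The small-intestinal absorption markers averaged 6.17 to 6.44 on HFD and 6.38 to 8.92 on LFD, and none of the 8 passed. Leaving out the 4 arrays with much of these transcripts gave 5 called initiation factor genes, as in the full set. Of those arrays only propionate LFD 2 belongs to this comparison, so the count cannot decide the part of these transcripts. No marker of colonocytes, goblet cells, smooth muscle, fibroblasts or lymphocytes passed. Cd83, a marker of dendritic and macrophage cells, rose by 0.67 (adjusted p = 0.0424, limma), where 2.05% of all genes passed as higher. Its list also held Cd68, Csf1r, Adgre1 and Itgax. The tested genes of that list averaged 5.30 ± 0.18 (SD, n = 4) with propionate on HFD and 5.07 ± 0.16 on LFD. The part of proliferating cells in the initiation factor results was not tested.

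The 5 genes called under propionate had smaller diet differences with the other infusions. They were chosen by their propionate difference, so the choice alone makes smaller values elsewhere likely. Over all genes tested, the median absolute diet difference was 0.123 with propionate, 0.082 with saline, 0.090 with acetate and 0.065 with butyrate. For Eif3b the HFD minus LFD difference was -0.01 with saline, -0.11 with acetate and 0.04 with butyrate. Eif2s3x had 0.02, 0.09 and 0.03 in that order, and Eif2b1 had -0.09, -0.06 and 0.02. Eif5a had -0.02, -0.10 and -0.19, and Eif4b had 0.18, 0.09 and 0.07. The 95% limits with saline were -0.20 to 0.19 for Eif3b, -0.29 to 0.10 for Eif2b1, -0.27 to 0.23 for Eif5a, -0.17 to 0.22 for Eif2s3x and -0.01 to 0.36 for Eif4b. None of these other differences passed. The test of the difference between the propionate and the saline diet difference is the interaction given below, and no member passed it.

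**Figure D4:**
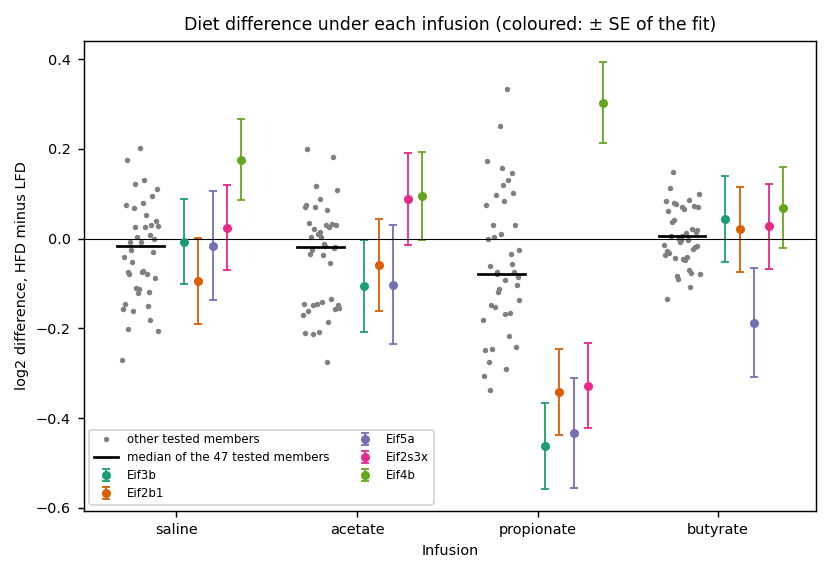
log2 level on HFD minus LFD under each infusion, with the 5 genes called under propionate in colour (± 1 standard error of the fit), the other tested genes as grey dots and the median of the 47 as a black bar. The coloured points spread from -0.46 to 0.30 under propionate, by which they were chosen, and lie between -0.19 and 0.18 under the other infusions.

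Over all infusions together, no member passed for diet, while limma called 345 of all genes tested, or 2.7%. Lower on HFD were 33 of the 47, with a median of -0.04 against 0.01 over all genes, and 13 of 47 (27.7%) had an unadjusted p under 0.05 against 21.7%. The 4 genes nearest the threshold were Eif3d, Eif4b, Eif2ak2 and Eif5a. Eif3d, for a cap-binding subunit of eIF3, had a lowest, median and highest array of 9.09, 9.18 and 9.30 on LFD and 8.88, 9.05 and 9.30 on HFD. Its difference of -0.11 ± 0.032 had an adjusted p of 0.0531. Eif4b ran through 10.1, 10.2 and 10.6 on LFD and 10.2, 10.5 and 10.6 on HFD, a difference of 0.16 ± 0.046 (adjusted p = 0.0544). The diets overlapped for both genes. Eif2ak2 had -0.17 ± 0.055 (adjusted p = 0.0785), with arrays of 7.33 to 7.89 on LFD and 7.11 to 7.70 on HFD. Eif5a had -0.18 ± 0.062 (adjusted p = 0.0862), with 9.92 to 10.7 on LFD and 9.85 to 10.4 on HFD. The dimmer probe set for Eif5a gave -0.08 (adjusted p = 0.234, limma) in the fit of all probe sets. These differences include the propionate groups.

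That count of 0 moved when single arrays were left out. It was 6 without propionate HFD 1, acetate LFD 1 or saline LFD 3, and 3 without saline LFD 1, butyrate HFD 2, butyrate LFD 4 or saline HFD 4. It was 2 without butyrate HFD 1 and 1 without acetate HFD 2, acetate HFD 3, saline HFD 2 or propionate HFD 3. Over the 31 fits without an array, all genes called ran from 127 to 1027, against 345 in the full set.

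With saline, where limma called no gene on the array, 5 of 47 members (10.6%) had an unadjusted p under 0.05 against 7.28% of all genes. Eif5b, for the GTPase that joins the subunits, read 6.96, 7.07, 6.83 and 6.97 on LFD and 6.76, 6.76, 6.75 and 6.73 on HFD. The arrays did not overlap, and the difference was -0.21 ± 0.080 (adjusted p = 0.675, limma). Eif1a, of the family that scans for the start codon, read 7.90, 8.00, 7.49 and 8.02 on LFD and 7.61, 7.60, 7.45 and 7.67 on HFD, with a difference of -0.27. LFD array 3 lay among the HFD arrays. The heme-sensing kinase gene Eif2ak1 read 8.50, 8.39, 8.64 and 8.56 on LFD and 8.81, 8.52, 8.81 and 8.65 on HFD, a difference of 0.18. Eif3f read 10.29, 10.69, 10.77 and 10.47 on LFD and 10.92, 10.67, 10.79 and 10.65 on HFD, a difference of 0.20 with overlap. Arrays of the diets did not overlap for 4 of the 47, all lower on HFD, where 2.3% of all genes had no overlap.

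With acetate, limma again called no gene, and 5 of 47 had an unadjusted p under 0.05 against 7.71% of all genes. Eif3d read 9.20, 9.18 and 9.30 on LFD and 9.04, 9.11, 8.88 and 9.02 on HFD, a difference of -0.21 (adjusted p = 0.629). Eif4a3 read 7.03, 7.05 and 7.03 on LFD and 6.83, 6.88, 6.80 and 6.53 on HFD, a difference of -0.27. Eif2ak1 read 8.56, 8.54 and 8.54 on LFD and 8.73, 8.65, 8.80 and 8.80 on HFD, a difference of 0.20. Eif2b4, for a regulatory subunit of eIF2B, read 7.15, 7.21 and 7.01 on LFD and 6.94, 6.79, 6.95 and 6.98 on HFD, a difference of -0.21. In each of these 4 genes the diets did not overlap, as in 6 of the 47 members and 8.4% of all genes, and none passed. With butyrate, no gene was called, no member had an unadjusted p under 0.05 against 3.67% of all genes, and the member differences ran from -0.19 to 0.15.

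Set against saline on the same diet, no acid gave a call in any initiation factor gene or in any gene on the array. On LFD, the members with an unadjusted p under 0.05 were 0 for acetate (1.51% of all genes), 2 for propionate (3.81%) and 1 for butyrate (2.8%). On HFD they were 0 for acetate (2.51%), 8 for propionate (11.7%) and 1 for butyrate (4.01%). Member differences for acetate on HFD ran from -0.11 to 0.24, and for butyrate on HFD from -0.16 to 0.20. The 95% limits over all members were -0.34 to 0.65 and -0.39 to 0.60.

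Propionate against saline on LFD had its smallest p at Eif3m, an eIF3 subunit gene whose probe set may also read processed copies. It read 7.87, 7.96, 7.91 and 8.20 with saline and 8.22, 8.22, 8.31 and 8.37 with propionate, without overlap, a difference of 0.29 ± 0.12 (adjusted p = 0.972, limma). Eif3b, at 9.73, 10.17, 9.96 and 10.23 with saline, was higher with propionate by 0.21, Eif5a by 0.19 and Eif3c by 0.09, each with 4 of 4 propionate arrays above the saline mean and none past the threshold. The arrays did not overlap for 3 of the 47, against 2.63% of all genes.

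On HFD the same comparison had 19 members higher and 28 lower, with a median of -0.03 against -0.02 over all genes. Eif2d read 7.69, 7.47, 7.48 and 7.53 with saline and 7.36, 7.27, 7.47 and 7.39 with propionate, a difference of -0.17 ± 0.063 (adjusted p = 0.309, limma). Eif6, which keeps the large subunit from joining too early, read 10.44, 10.52, 10.33 and 10.51 with saline and 10.22, 10.31, 10.31 and 10.24 with propionate, a difference of -0.18 ± 0.068. Neither gene had overlap between the groups, which held for 3 of the 47 and 4.71% of all genes. Eif3b read 9.82, 10.04, 9.93 and 10.29 with saline, and with propionate it was lower by 0.25 ± 0.096 (adjusted p = 0.322), with saline array 1 inside the propionate range. Eif3h read 11.01, 10.97, 11.24 and 10.90 with saline and 11.23, 11.30, 11.14 and 11.05 with propionate, a difference of 0.15. In these groups all 7 smooth muscle markers were lower with propionate, at a median of -0.86, and their part in these values was not tested. Without saline HFD arrays 1 and 2 no initiation factor gene was called either. The full set held no call to lose, so this count does not test the part of these markers.

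The response to propionate was then compared between the diets, as the response on HFD minus the response on LFD. No member and no gene on the array passed, while 5 of 47 (10.6%) had an unadjusted p under 0.05 against 12.8% of all genes. Eif3b had an interaction of -0.46 ± 0.14 (adjusted p = 0.200), made of a response of 0.21 on LFD and of -0.25 on HFD. Eif2s3x had -0.35 ± 0.13 (adjusted p = 0.269), made of 0.15 and -0.21. Eif2d had -0.22 ± 0.090 (adjusted p = 0.297) and Eif5a -0.42 ± 0.17 (adjusted p = 0.305), all by limma. The interaction uses the same arrays as the diet difference under propionate and under saline. No member passed for the acetate or the butyrate interaction, where 0 and 1 of 47 had an unadjusted p under 0.05, against 0.844% and 2.27% of all genes.

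On HFD, butyrate and propionate were compared at the same dose and time. Of all genes, 8 passed (0.0625%) and none of them was an initiation factor gene. Higher with butyrate were 34 of the 47, with a median of 0.07 against 0.04 over all genes, and 10 of 47 (21.3%) had an unadjusted p under 0.05 against 17.3%. Eif3b read 10.18, 10.30, 10.07 and 10.05 with butyrate, all above the propionate arrays, a difference of 0.38 ± 0.096 (95% limits 0.18 to 0.57, adjusted p = 0.0732). Eif4a1 read 11.70, 11.84, 11.59 and 11.76 with butyrate, a difference of 0.33 ± 0.094 (adjusted p = 0.0953), where propionate array 1 lay just inside the butyrate range. Its other probe sets gave 0.23 and 0.21 (adjusted p = 0.147 and 0.189, limma) in the fit of all probe sets. Eif1ax, of the start codon scanning factors, read 8.40, 8.56, 8.28 and 8.32 with butyrate and 8.28, 7.94, 7.94 and 8.10 with propionate, a difference of 0.33 (adjusted p = 0.108) without overlap. Eif2b1 read 8.55, 8.63, 8.48 and 8.45 with butyrate, a difference of 0.30 (adjusted p = 0.130, all limma). The acids did not overlap for 4 of the 47, against 7.25% of all genes. Without propionate HFD array 1, 6 members and 585 of all genes passed.

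Propionate against acetate on HFD gave no call, with 10 of 47 members (21.3%) at an unadjusted p under 0.05 against 13.2% of all genes. Eif4a1 read 11.66, 11.60, 11.84 and 11.66 with acetate, and with propionate it was lower by 0.30 ± 0.094 (adjusted p = 0.163). Eif2s3x read 9.54, 9.41, 9.71 and 9.65 with acetate and was lower by 0.28 with propionate, Eif1ax read 8.41, 8.22, 8.34 and 8.29 and was lower by 0.25, and Eif2b1 read 8.45, 8.35, 8.60 and 8.44 and was lower by 0.23. The arrays overlapped in each, with propionate array 1 or 4 the highest of its group, and none passed in limma. Other members had no overlap in 3 cases, against 4.52% of all genes. Butyrate against acetate on HFD gave no call, with 1 of 47 at an unadjusted p under 0.05 against 3.64%. These 3 comparisons and the saline comparisons on HFD share groups, so their values are not independent.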

How the data were processed

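RNA of 31 colon scrapings was measured on single-colour whole-transcript arrays, 1 array per sample. The authors deposited log2 expression values made with RMA, per the submitters' processing notes. The RMA version is not given in the sources used here, nor is the build. Probe sets with 1 gene symbol were kept (21218 of 35556; 1881 had several and 12457 were not listed in the annotation), and the one with the highest mean stood for a gene; 9 of the 49 initiation factor genes had more than 1. A gene was tested where at least 3 arrays reached an intensity of 20. The signal over background and the number of arrays limit precision.

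A model with 1 mean per group was fitted to 12795 genes in R 4.3.3 with limma 3.58.1 (moderated variances with a trend on intensity) for 17 comparisons. Genes passed at 0.05 after Benjamini-Hochberg adjustment over all of them. Errors are standard errors of the fit, which pool the spread of all groups, and 95% limits come from it. The code was tested on simulated data. Values for every array were given for members past the threshold and for the 4 with the smallest p in most comparisons described. The members and lists were chosen with earlier results of these data known. Samples sharing a replicate number were checked for pairing: 42 of 105 such pairs had a correlation of deviations over 0.1. The median was 0.04 for the same number and -0.012 for different numbers, and 12 arrays correlated best with their own number. The main fit did not pair them, and a replicate block was run as an alternative. The alternatives were the filter, the moderation, array weights, all probe sets, quantile normalization, a replicate block, the samples in the fit and leaving out arrays. The fits that drop arrays rich in small-intestinal or in smooth muscle transcripts were chosen after seeing the data.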

Additional observations from a re-analysis of the deposited data

Results flagged for a closer look

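Of 168 gap tests, 1 for each of 24 initiation factor genes in each of the 7 groups of 4 arrays, 8 singled out an array whose gap to its nearest group mate took up more of the group's range than Dixon's 95% limit allows, and chance alone gives about 1 in 20. Array propionate HFD 1 was high for Eif2b3 at 7.10, where its group mates reached 6.51, and array propionate LFD 2 was low for Eif2b3 at 6.73, where the nearest was 6.94. Eif1a was low on propionate LFD 2 at 7.61 and high on acetate HFD 4 at 7.71. Eif2d was low on saline LFD 1 at 7.31, with the others from 7.52 to 7.53, and high on butyrate LFD 1 at 7.53. Eif4a3 was low on butyrate HFD 3 at 6.72. Eif4b was high on saline LFD 3 at 10.46, with the nearest at 10.18.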

How the results depend on the processing

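The number of initiation factor genes called for diet under propionate, 5 of 47, was 3 with no filter, 15 with array weights and 0 to 10 when an array was left out (0 without propionate HFD 2, propionate HFD 3 or propionate LFD 3, 10 without propionate HFD 1), where all genes called ran from 0 to 1731. It was 4 to 7 under the other alternatives, including 6 with the replicate block. For diet over all infusions, with 0, it was 2 with the stricter filter, 12 with array weights, 1 after quantile normalization, 2 without the 4 arrays rich in small-intestinal transcripts and 0 to 6 when an array was left out. Over those fits without an array, all genes called ran from 127 to 1027. For butyrate minus propionate on HFD the member count was 6 with array weights and 0 to 6 when an array was left out. It was 6 without propionate HFD 1, and for propionate minus acetate on HFD it was 5 with array weights. With array weights, all genes called went from 879 to 2652 for diet under propionate. For diet over all infusions they went from 345 to 1788. On HFD they went from 8 to 937 for butyrate minus propionate and from 0 to 1202 for propionate minus acetate. For propionate minus saline on HFD they went from 0 to 213, and for the propionate interaction from 0 to 101. The member counts of the other 13 comparisons were 0 under every alternative run. Across the named genes, 750 values kept their direction and their side of the threshold, 44 came to pass, 29 no longer passed and none turned. Of the alternatives that keep every array or leave out those chosen after seeing the data, 11 in all, Eif3b and Eif5a passed in 11, Eif2b1 in 10, and Eif2s3x and Eif4b in 9. For Eif5a this holds for the brighter probe set only. The dimmer probe set gave -0.12 (adjusted p = 0.326, limma) in the fit of all probe sets. The replicate block changed no other member count. With it, all genes called rose from 345 to 454 for diet over all infusions and from 879 to 924 for diet under propionate. On HFD they rose from 8 to 64 for butyrate minus propionate and from 0 to 72 for propionate minus acetate. For propionate minus saline on HFD they rose from 0 to 1, and for the propionate interaction from 0 to 11. The number of arrays limits the precision, and the cause of the changes was not tested.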
